A study of Mus musculus with 10 samples.

Results

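Transcripts of 28 genes for cholesterol synthesis, sterol sensing, transport and esterification were examined in livers of tumour-bearing mice. The members were chosen by gene symbol, and all 28 were found among the 24972 symbols of the table. Each member passed the filter on low values, which asks for 10 scaled counts or more on average over the libraries, as did 11110 symbols in all. A scaled count is a gene's read count after scaling to a common library depth.

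RNA was measured in 10 mouse liver libraries, made with a kit that reads the 3′ ends of transcripts (QuantSeq FWD). The 4 Tcell-low libraries came from livers of mice labelled WT that carried tumours of the line 6419c1, and the 6 Tcell-high libraries from livers of mice labelled WT that carried tumours of the line 6555c3. Both are pancreatic ductal adenocarcinoma lines from KPC mice, a genetic model of this cancer, and the comparison asks how livers differ between mice whose tumours hold few or many T cells. Each group rests on 1 tumour line, so line and T cell class cannot be told apart, and the labels used here give no age, sex, time or separate treatment. Nothing in them ties each library to a mouse of its own, so the p-values rest on variation among libraries that may be partly technical.

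Hepatocytes build cholesterol from acetyl-CoA by way of mevalonate, isoprenoid diphosphates, squalene and lanosterol, and the liver is a main site of this synthesis in the body. When membranes of the endoplasmic reticulum are poor in sterol, the escort protein SCAP carries the precursor of the transcription factor SREBP-2 to the Golgi, where it is cut and set free to raise the transcription of nearly every enzyme of the pathway. Sterols, together with the INSIG proteins, hold SCAP back. Excess cholesterol is esterified for storage or exported into bile.

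SREBP-2 binds sterol response elements next to sites of the factor NF-Y, whose core is the CCAAT box, and of Sp1, whose core is the GC box. Promoters from 250 bases before to 50 bases after the start site were taken from RefSeq (GRCm38.p6) and matched for 23 of the 28 members. On either strand, CCAAT was found in the promoters of 21 of these 23 genes (91.3%), against 41.1% of 27025 genes with a promoter in the same table. The GC box GGGCGG was found for 19 (82.6%, against 38.2% of all), and the sterol response element TCACNCCAC for 1, Hmgcs1 (4.35%, against 1.44% of all). Each motif was counted by itself, whether or not matches overlapped, the shares were not matched for base composition, and a match is a description of letters and not a binding site. A gene with more than 1 promoter was counted if any of them held a match. The comparison took in every gene with a promoter, whether or not it passed the filter on low values. Sterol elements spelled otherwise were not searched for. The 250 bases before the RefSeq start site are shown for 4 genes picked after their values were seen. They are Hmgcs1, which has the sterol element, Idi1, whose levels were spread most widely, Tm7sf2, which had the lowest adjusted p of the members, and Insig2, which was high where most members were low. They lie at chr13:119690101-119690350 (plus strand), chr13:8885356-8885605 (plus strand), chr19:6067851-6068100 (minus strand) and chr1:121332590-121332839 (minus strand), and capitals mark the letters of any of the 3 motifs. Gene positions given below are from another annotation, GENCODE, whose starts can differ. By GENCODE the Tm7sf2 stretch lies inside the gene (6062821 to 6068373), and the Idi1 stretch runs past the gene's start (8885501).
Hmgcs1: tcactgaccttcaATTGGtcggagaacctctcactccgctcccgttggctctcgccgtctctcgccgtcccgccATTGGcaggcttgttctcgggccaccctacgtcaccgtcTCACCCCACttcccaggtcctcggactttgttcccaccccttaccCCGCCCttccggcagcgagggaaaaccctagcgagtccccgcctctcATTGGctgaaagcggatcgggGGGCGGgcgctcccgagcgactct
Idi1: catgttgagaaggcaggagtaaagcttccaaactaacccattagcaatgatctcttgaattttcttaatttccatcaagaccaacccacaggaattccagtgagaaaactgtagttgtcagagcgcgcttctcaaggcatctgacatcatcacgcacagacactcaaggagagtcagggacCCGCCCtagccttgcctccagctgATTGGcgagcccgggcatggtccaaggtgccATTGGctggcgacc
Tm7sf2: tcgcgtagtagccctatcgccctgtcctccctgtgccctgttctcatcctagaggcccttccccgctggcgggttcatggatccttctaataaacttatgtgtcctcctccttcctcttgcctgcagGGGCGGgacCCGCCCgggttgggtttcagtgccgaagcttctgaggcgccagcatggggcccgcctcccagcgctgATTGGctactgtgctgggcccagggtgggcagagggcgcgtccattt
Insig2: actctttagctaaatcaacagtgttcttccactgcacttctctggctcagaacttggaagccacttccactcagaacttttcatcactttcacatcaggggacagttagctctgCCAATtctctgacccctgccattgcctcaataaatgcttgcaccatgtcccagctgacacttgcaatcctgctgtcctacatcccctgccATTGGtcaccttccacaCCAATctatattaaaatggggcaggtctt
The stretch of Hmgcs1 holds 1 sterol element, 3 CCAAT and 2 GC boxes, and that of Idi1 2 CCAAT and 1 GC box. That of Tm7sf2 holds 1 CCAAT and 2 GC boxes, and that of Insig2 3 CCAAT and no GC box. Insig2 has other RefSeq promoters, further from its GENCODE start, and these each held 1 GC box and no CCAAT.

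Some libraries stood apart from their group. Tcell-high 1, 3, 5 and 6 differed from the other 6 libraries, with 3465 to 9359 scaled counts of the globin gene Hbb-bs against 16.2 to 214.6, and H2-L, a histocompatibility gene, listed at 0 against 307.5 to 1477. Tcell-low 1 was closer to the Tcell-high libraries (mean correlation over genes 0.936) than to its own group (0.861). Scaled totals ran from 7060777 to 8257373 in Tcell-low and from 7000659 to 7513620 in Tcell-high libraries. Hepatocyte markers were abundant throughout, their summed level being 527200 to 704900 scaled counts in Tcell-low and 378900 to 624700 in Tcell-high libraries over 9 of 10 listed genes, of which 1, Apoa1, was called higher and 0 lower. Neutrophil markers moved with the groups: all 4 tested of 6 were called higher in Tcell-low livers, with sums of 628.6 to 1717 against 39.8 to 210.7, and Camp and Ltf were at 0 in at least 5 libraries. Sums over 5 erythroid markers were 43060 to 98090 against 19680 to 51910, with 1 called higher, Hba-a2. Among them Hba-a1 was at 0 in at least 5 libraries, and Hbb-bs averaged 167 against 4230 scaled counts without being called. Of 5 sinusoidal endothelial markers 2 were called higher, Stab2 and Lyve1, with sums of 1890 to 2026 against 1671 to 2474. Stellate cell and fibroblast markers had sums of 2900 to 4642 against 2172 to 3095, with 0 called of 5 tested. Duct and carcinoma markers had sums of 152 to 446.6 against 106.6 to 232.7, with 0 called, but only 3 of 5 were tested. Pancreatic acinar markers had sums of 13.1 to 86.5 against 4.85 to 36.8, with 0 called, but only 1 of 5 was tested. Of these, Prss2 and Cpa1 were at 0 in at least 5 libraries. Sums over 6 Kupffer cell markers were 3632 to 7435 against 2117 to 9090 with none called. Those over the 4 T cell markers in the table were 1.6 to 15.5 against 2.9 to 8.46. Of these T cell markers 0 were tested, and Cd8a was at 0 in at least 5 libraries. The part of other cell types in the results below was not tested, and fewer cells of a type cannot be told apart from less RNA per cell in bulk tissue.

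Of the 28 cholesterol genes, 5 fell in Tcell-low livers, 0 rose and 23 did not pass the test, limma's moderated test on log2(scaled count + 1) with Benjamini-Hochberg adjustment over all genes tested and a threshold of 0.05. Acat2, Tm7sf2, Ebp, Sc5d and Dhcr7 were those that fell, and 4 of them act between lanosterol and cholesterol. Of all genes tested, 12.8% were called, made up of 7.39% that were lower and 5.39% that were higher in Tcell-low livers. Fold changes in log2, Tcell-low minus Tcell-high, had a median of -0.99 over the members, with 25 below 0 and 3 above, and of 0.003 over all genes tested. Groups did not overlap for 3 members, Tm7sf2, Ebp and Dhcr7, and for 7.39% of all genes tested. The log2(value + 1) scale understates changes of low genes, and most log2 fold changes are followed by their standard error (SE).

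**Figure D1:**
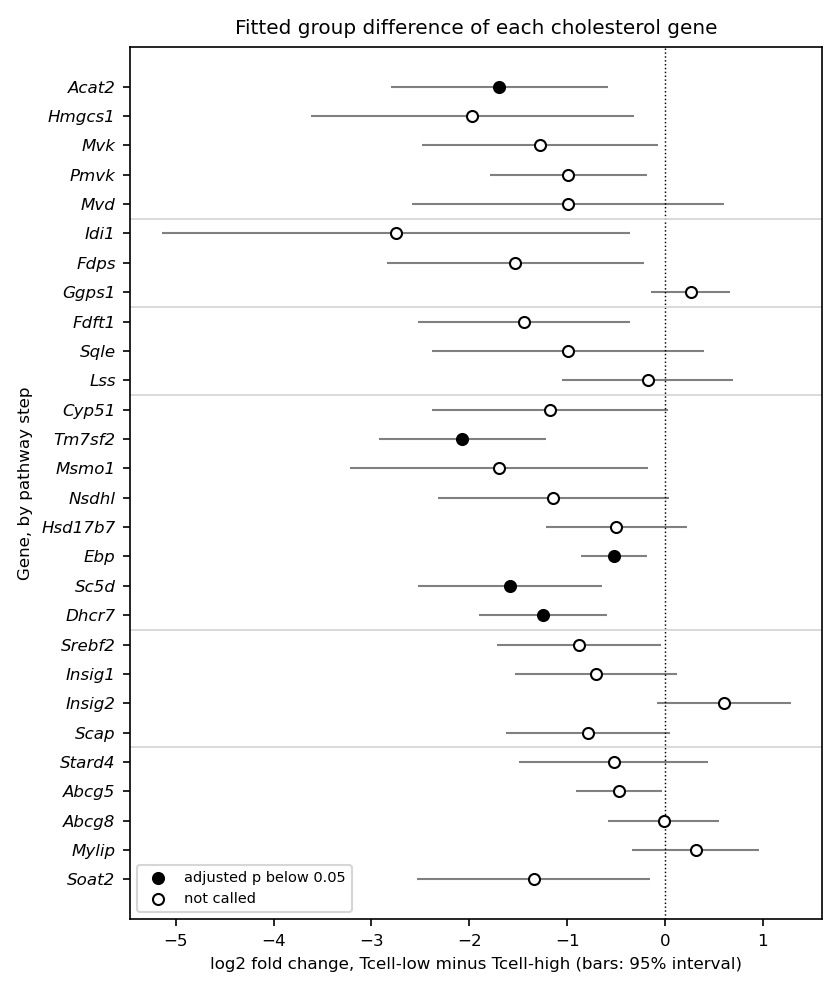
Fitted log2 fold change of each of the 28 genes, Tcell-low minus Tcell-high, with its 95% interval, ordered by pathway step. The 5 filled points (Acat2, Tm7sf2, Ebp, Sc5d and Dhcr7) passed the test, while several open points with larger estimates, such as Idi1 at -2.75, have wide intervals.

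The number called rested on single libraries. Without Tcell-low 2 it was 0 (0.972% of all genes called). In that fit 7 of 28 members and 2612 of 11110 genes had an unadjusted limma p below 0.05. Without Tcell-low 4 the number called was 1, which was lower (1.4% of all). Without Tcell-low 1 it was 13 lower and 1 higher (32.6% of all), the last being Insig2, and without Tcell-low 3 it was 8 lower (4.55% of all). It was 1 lower without each of Tcell-high 1, 3, 5 and 6 (3.91%, 3.43%, 3.33% and 4.02% of all), 6 without Tcell-high 2 (20.4%) and 3 without Tcell-high 4 (9.83%). When Tcell-high 1, 3, 5 and 6 were all left out, so that the Tcell-low libraries were compared with Tcell-high 2 and 4, limma called 0 members and 0 of all genes (3 members and 999 genes at an unadjusted p below 0.05). The median log2 fold change of the members was -0.87 in that fit.

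Libraries of the Tcell-low group differed widely from each other. In Tcell-low 2 and 4 most enzymes were far below every Tcell-high library, while Tcell-low 1 and 3 showed no such common shift. Tcell-low 1 was inside that range for 17 of the 28 members and below it for 11. Tcell-low 3 was inside it for 9, above it for 12 and below it for 7. It was the highest of the 10 libraries for 10 members, while the 5 genes that fell lay below the range there too. These positions of Tcell-low 1 and 3 were not counted over all genes tested, so they are not shown to be particular to the members. Median log2 differences from the Tcell-high mean, over the 28 genes, were -0.25, -1.89, 0.20 and -1.92 in Tcell-low 1, 2, 3 and 4, against -0.29 to 0.17 in the Tcell-high libraries. Tcell-low 2 and 4 were the 2 lowest of the 10 libraries for 19 of 28 members, and for 14.4% of all genes tested. Both lay at least 1 on the log2 scale below each other library for 12 members, and for 2.36% of all genes tested. They were the 2 highest libraries for 3 members (10.7%), Ggps1, Insig2 and Mylip, and for 15.9% of all genes tested. This pair of libraries was singled out after the values were seen, and these counts are descriptions with no test. The spread from the lowest to the highest library had a median of 2.43 on the log2 scale over the members in Tcell-low livers and of 0.80 in Tcell-high livers, against 1.21 and 1.05 over all genes tested. It was wider in the Tcell-low group for 25 of 28 members, a count that was not made over all genes tested.

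**Figure D2:**
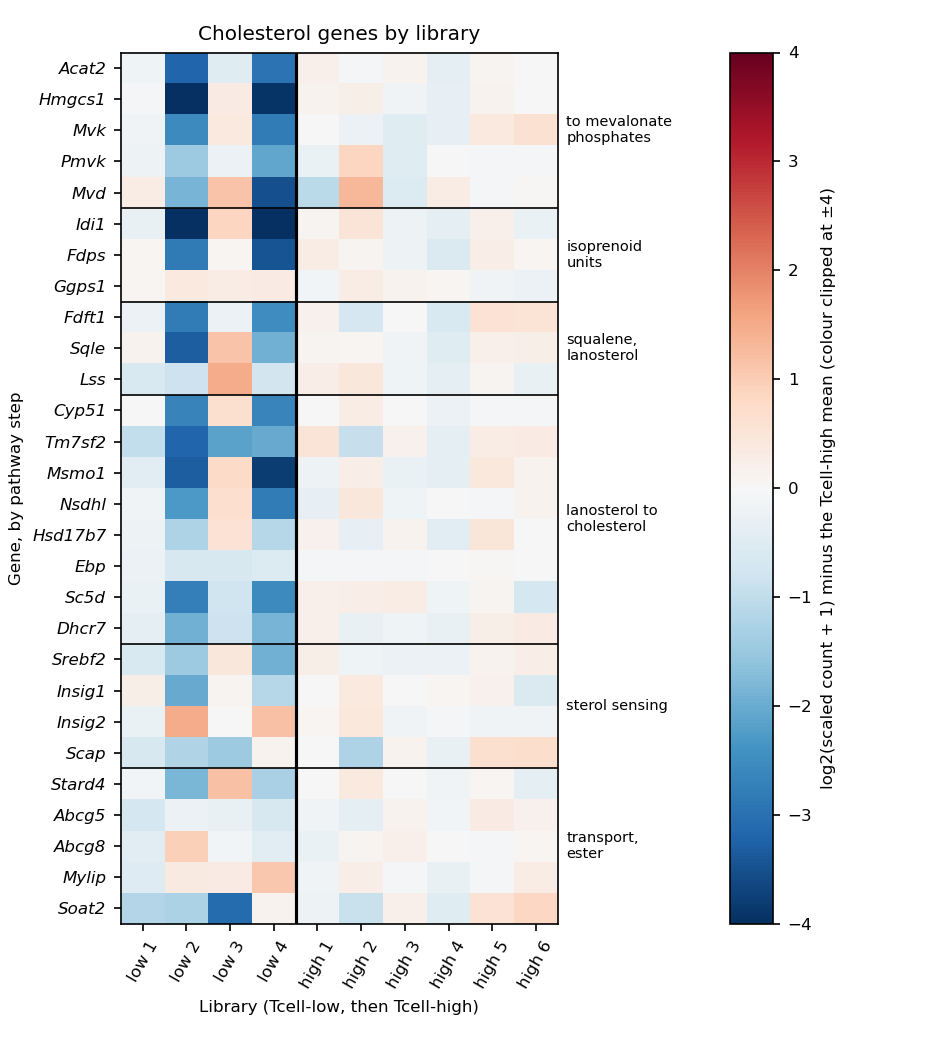
Log2 of the scaled count plus 1 minus the Tcell-high mean, for 28 genes (rows, by pathway step) in 10 libraries (columns, Tcell-low left of the line). Columns of Tcell-low 2 and 4 are dark blue over most enzymes, Tcell-low 1 and 3 are paler, with Tcell-low 3 red for some genes and blue for others such as Tm7sf2, and Insig2 is red in Tcell-low 2 and 4.

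The first steps condense acetyl-CoA and carry it through mevalonate to isopentenyl diphosphate, and 1 of their 5 genes fell. Acat2 (chromosome 17, 12942890 to 12960747), the cytosolic thiolase that joins acetyl-CoA units, had 940, 117, 756.8 and 137.3 scaled counts in Tcell-low 1 to 4. In Tcell-high livers it had 831.8 to 1224 with a median of 1088. The low values were those of Tcell-low 2 and 4, and Tcell-low 1 lay inside the Tcell-high range. A log2 fold change of -1.69 was fitted (SE 0.52, limma adjusted p = 0.0486). Of the 50-base words in its last 400 transcript bases, 21.4% occur in another gene, the neighbouring paralogue Acat3, so reads of both may be mixed. Acat3 itself had 432.1 ± 402.1 scaled counts in Tcell-low and 1510 ± 113 in Tcell-high livers (log2 fold change -2.33, SE 0.48, limma adjusted p = 0.017), named after its value was seen. The call of Acat2 was lost without Tcell-low 2 (adjusted p = 0.162), Tcell-low 4 (0.142), Tcell-high 1 (0.0922), 3 (0.0905), 4 (0.06), 5 (0.0919) or 6 (0.088).

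Hmgcs1 encodes the cytosolic synthase that makes HMG-CoA, and its promoter holds the match to the sterol element shown above. It had 4775, 280, 6310 and 330 scaled counts in Tcell-low 1 to 4. Its Tcell-high values were 4042 to 5960 with a median of 5245. Tcell-low 3 was the highest of the 10 libraries, while Tcell-low 2 and 4 were 18.2 and 15.5 times below the Tcell-high mean. Its log2 fold change was -1.97 (SE 0.76, limma adjusted p = 0.0938). Without Tcell-low 1 it was -2.60 (limma adjusted p = 0.0187), and without Tcell-low 3 it was -2.73 (limma adjusted p = 0.0487).

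The mevalonate kinase gene Mvk had 141, 25.7, 204.5 and 21.8 scaled counts in Tcell-low 1 to 4 and 111.2 to 240.3 in Tcell-high livers. Pmvk, for the kinase that adds the next phosphate, had 714.4, 300.5, 699 and 193.6 against 579.3 to 1487. Mvd, which encodes the decarboxylase that yields isopentenyl diphosphate, had 1604, 357.7, 2854 and 114.1 against 620.7 to 3315. In each of these 3 genes Tcell-low 2 and 4 were the lowest libraries and Tcell-low 1 and 3 were inside the Tcell-high range. Log2 fold changes were -1.28 for Mvk (SE 0.56), -0.99 for Pmvk (SE 0.37) and -0.99 for Mvd (SE 0.74), and none passed the test (limma adjusted p = 0.126, 0.0868 and 0.355). Without Tcell-low 1 Mvk and Pmvk did pass (limma adjusted p = 0.0424 and 0.0225).

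Of the 3 genes that interconvert and join isoprenoid units, none passed the test. Idi1, the isomerase of isopentenyl diphosphate, had 347.1, 6.84, 764 and 6.62 scaled counts in Tcell-low 1 to 4, against 327.4 to 604.5 with a median of 411.2 in Tcell-high livers. Tcell-low 2 and 4 were 63.4 and 65.5 times below the Tcell-high mean, the widest gap among the members, and Tcell-low 3 was the highest library. Fitted over all libraries, the log2 fold change was -2.75 (SE 1.11, limma adjusted p = 0.104), and it passed without Tcell-low 1 (-3.57, limma adjusted p = 0.0276) or Tcell-low 3 (-3.95, limma adjusted p = 0.0459). Fdps, the farnesyl diphosphate synthase, had 1830, 245.3, 1820 and 159.2 against 1172 to 2137 with a median of 1856 (log2 fold change -1.53, SE 0.61, limma adjusted p = 0.0997; adjusted p = 0.0164 without Tcell-low 1). Tcell-low 1 and 3 were at the Tcell-high level. Of the 3′ words of Idi1 and Fdps, 40.6% and 52.9% occur in other annotated genes, so both are uncertain.

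Ggps1 stands at the branch to geranylgeranyl diphosphate, which is used to anchor proteins and not to make sterols. It had 157, 194.8, 184.6 and 187 scaled counts in Tcell-low 1 to 4 and 127.1 to 183.3 with a median of 147.7 in Tcell-high livers. The 2 highest libraries were here Tcell-low 2 and 4, by a small margin. Its log2 fold change was 0.27 (SE 0.19, limma adjusted p = 0.324), with a 95% interval of -0.14 to 0.67.

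Squalene and lanosterol synthesis commit the pathway to sterols, and none of its 3 genes passed. Fdft1, the squalene synthase, had 547.1, 91.6, 551.8 and 115.7 scaled counts in Tcell-low 1 to 4, against 407.9 to 961.2 with a median of 686.7 in Tcell-high livers. Fdft1 had a log2 fold change of -1.44 (SE 0.50, limma adjusted p = 0.0702; adjusted p = 0.014 without Tcell-low 1), and 22.7% of its 3′ words occur in another gene. Sqle, the squalene epoxidase, had 421.6, 38.2, 845.7 and 101.9 against 278.9 to 451.4 (-0.99, SE 0.64, limma adjusted p = 0.285). Tcell-low 3 was the highest library for Sqle, and Tcell-low 2 and 4 were the lowest for both genes. Lss, the lanosterol synthase, had 96.5, 82.2, 412.9 and 87.4 against 115.1 to 203.7. There Tcell-low 1, 2 and 4 all lay below the Tcell-high range and Tcell-low 3 above it, and the log2 fold change was -0.18 (SE 0.40, limma adjusted p = 0.779).

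The route between lanosterol and cholesterol had 4 of its 8 genes lower, and the other 4 did not pass. Tm7sf2 (chromosome 19, 6062821 to 6068373), a sterol reductase that acts after the demethylase Cyp51, had 71.3, 14.9, 31.3 and 34.6 scaled counts in Tcell-low 1 to 4. Its Tcell-high values were 74.7 to 203 with a median of 167.3. All 4 Tcell-low libraries were below all Tcell-high libraries, Tcell-low 1 by a small margin, and Tcell-low 3 was close to Tcell-low 4. Tm7sf2 thus had a log2 fold change of -2.07 (SE 0.40, limma adjusted p = 0.0139). The adjusted p was 0.0506 without Tcell-low 2. Its start lies within Vps51 on the same strand, and Vps51 had 453.4 ± 194.8 against 367.9 ± 149.9 scaled counts (log2 fold change 0.32, SE 0.34, limma adjusted p = 0.51).

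Ebp (X chromosome, 8185329 to 8193512), the sterol isomerase, had 6112, 4634, 4678 and 4987 scaled counts in Tcell-low 1 to 4, against 7059 to 7587 with a median of 7239 in Tcell-high livers. The groups did not overlap, the change was small, and the 6 Tcell-high values were close together. Ebp had a log2 fold change of -0.52 (SE 0.16, limma adjusted p = 0.0484). Leaving out Tcell-low 2, 3 or 4 raised the adjusted p to 0.147, 0.106 and 0.107, and leaving out Tcell-high 1, 3, 4, 5 or 6 raised it to 0.0921, 0.0917, 0.0714, 0.096 and 0.0865.

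Sc5d (chromosome 9, 42251595 to 42264256), the sterol desaturase, had 2129, 383.9, 1484 and 441.1 scaled counts in Tcell-low 1 to 4, against 1582 to 3157 with a median of 2864 in Tcell-high livers. Tcell-low 1 lay inside the Tcell-high range, and the other Tcell-low libraries lay below it. The log2 fold change was -1.59 (SE 0.44, limma adjusted p = 0.0367). Its adjusted p was 0.127 without Tcell-low 2 and 0.112 without Tcell-low 4, and 0.0746, 0.075, 0.0739 and 0.0528 without Tcell-high 1, 3, 5 and 6.

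Dhcr7 (chromosome 7, 143823145 to 143848410), the reductase of the last step to cholesterol, had 333, 114.3, 246.7 and 119.8 scaled counts in Tcell-low 1 to 4. In Tcell-high livers it had 353.1 to 544.2 with a median of 442. All Tcell-low libraries were below all Tcell-high libraries, Tcell-low 1 by a small margin. The log2 fold change was -1.24 (SE 0.30, limma adjusted p = 0.026). Without Tcell-low 2 or 4 the adjusted p was 0.096 and 0.0854, and without Tcell-high 1, 3, 5 or 6 it was 0.0587, 0.0525, 0.0598 and 0.0585.

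**Figure D3:**
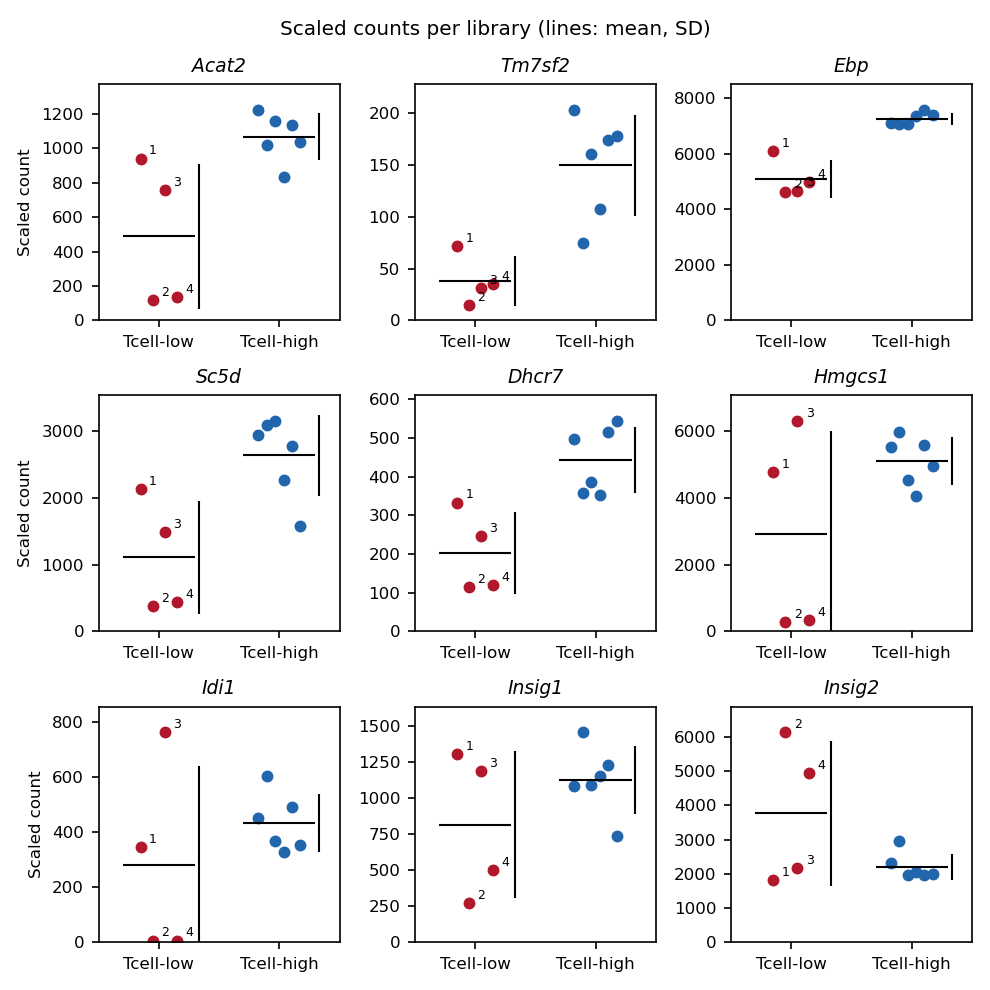
Scaled counts per library of the 5 genes that fell and of Hmgcs1, Idi1, Insig1 and Insig2, with Tcell-low (red, numbered 1 to 4) left of Tcell-high (blue). Horizontal lines are means, vertical lines are SDs over 4 and 6 libraries, cut at 0, and Tcell-low 2 and 4 are near 0 for Idi1 and Hmgcs1 but highest for Insig2.

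The 4 genes of this route that did not pass differed widely between Tcell-low libraries. Cyp51, the lanosterol demethylase, had 2395, 375.7, 3794 and 385.2 scaled counts in Tcell-low 1 to 4 and 2075 to 2962 in Tcell-high livers. Msmo1, the methylsterol oxygenase, had 1204, 166, 2815 and 119.4 against 1254 to 2229. Both genes were highest in Tcell-low 3 and lowest in Tcell-low 2 and 4. Nsdhl, a dehydrogenase of the same demethylation, had 472.8, 105.2, 846.6 and 75.4 against 420.1 to 718.3, and Hsd17b7, its reductase, had 446.4, 219, 769.3 and 228.8 against 369.8 to 718.5. Tcell-low 3 was again the highest and Tcell-low 2 and 4 the lowest. Log2 fold changes were -1.17 for Cyp51 (SE 0.56), -1.70 for Msmo1 (SE 0.71), -1.14 for Nsdhl (SE 0.55) and -0.50 for Hsd17b7 (SE 0.34), and none passed (limma adjusted p = 0.156, 0.112, 0.158 and 0.305). Msmo1 passed without Tcell-low 1 (limma adjusted p = 0.0446) or Tcell-low 3 (0.0391).

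**Figure D4:**
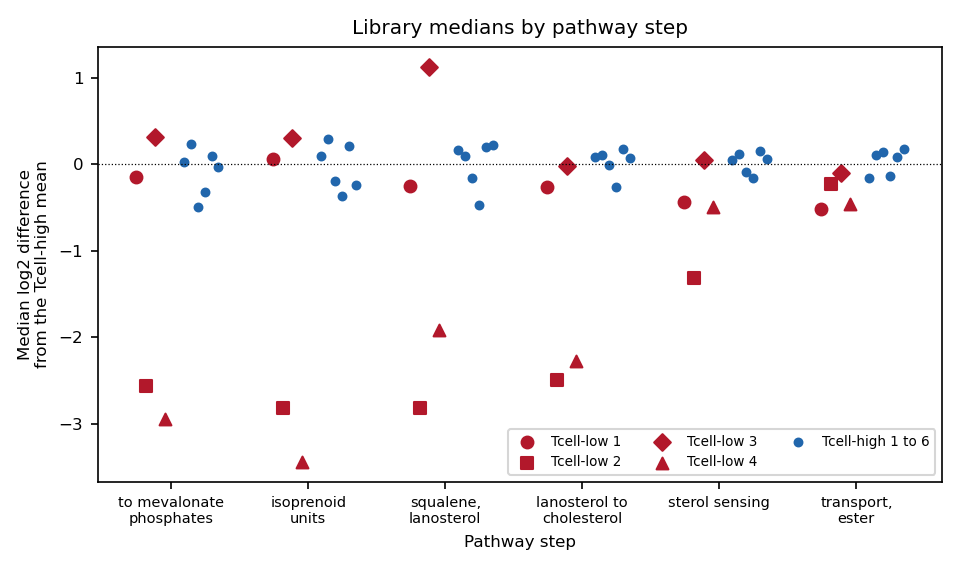
Median log2 difference from the Tcell-high mean over the genes of each pathway step, for each Tcell-low library (red symbols) and the Tcell-high libraries (blue points). Tcell-low 2 and 4 lie between -3.44 and -1.91 in the 4 synthesis steps and between -1.32 and -0.23 for sterol sensing and transport.

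Library medians showed the same split of the Tcell-low libraries in each synthesis step. In Tcell-low 2 and 4 they were -2.56 and -2.94 for the genes up to isopentenyl diphosphate, -2.82 and -3.44 for isoprenoid units, -2.81 and -1.91 for squalene and lanosterol, and -2.50 and -2.27 for the steps after lanosterol. In Tcell-low 1 they were -0.26 to 0.07 and in Tcell-low 3 -0.02 to 1.13 over these 4 steps, against -0.49 to 0.29 in Tcell-high libraries. For sterol sensing genes Tcell-low 2 and 4 had -1.32 and -0.50, and for transport genes -0.23 and -0.46. Whether the steps differ was not tested.

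None of the 4 sterol sensing genes passed the test. Srebf2, which encodes SREBP-2 and is itself raised by it, had 55, 30.7, 117.9 and 21.7 scaled counts in Tcell-low 1 to 4 and 71.5 to 101.7 in Tcell-high livers (log2 fold change -0.88, SE 0.39, limma adjusted p = 0.128; adjusted p = 0.0436 without Tcell-low 3). Tcell-low 3 was the highest library and Tcell-low 2 and 4 were the lowest. Scap, for the escort protein, had another order, with 248.1, 169.2, 142.1 and 431.7 against 164.7 to 636 (-0.78, SE 0.39, limma adjusted p = 0.17). It passed when Tcell-high 2, which had the lowest Tcell-high value, was left out (-1.03, limma adjusted p = 0.0446).

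The 2 INSIG genes went opposite ways within the Tcell-low group. Insig1, a target of SREBP-2, had 1305, 272.4, 1185 and 499.6 scaled counts in Tcell-low 1 to 4 and 738.5 to 1458 with a median of 1122 in Tcell-high livers. Tcell-low 2 and 4 were the lowest libraries, and the log2 fold change was -0.70 (SE 0.38, limma adjusted p = 0.208). Insig2, which in liver is not raised by SREBP-2, had 1821, 6141, 2158 and 4930 against 1956 to 2948 with a median of 2023. Tcell-low 2 and 4 were the 2 highest libraries, as they were for 15.9% of all genes tested, and both lay above every Tcell-high value. The log2 fold change of Insig2 was 0.60 (SE 0.32, limma adjusted p = 0.193), with a 95% interval of -0.08 to 1.28. Without Tcell-low 1 both passed, Insig1 at -1.02 (limma adjusted p = 0.0495) and Insig2 at 0.89 (limma adjusted p = 0.0334).

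None of the 5 transport and esterification genes passed either. Stard4, a cytosolic sterol carrier induced by SREBP-2, had 622.7, 187.8, 1510 and 272.4 scaled counts in Tcell-low 1 to 4 and 530.1 to 883.8 with a median of 675.1 in Tcell-high livers. Tcell-low 3 was the highest of the 10 libraries and Tcell-low 2 and 4 were the lowest, and the log2 fold change was -0.52 (SE 0.45, limma adjusted p = 0.418). Abcg5 and Abcg8 encode the half-transporters that together export sterols into bile and lie head to head with overlapping starts. Abcg5 had 113.9, 157.6, 149.2 and 118.7 against 142.9 to 230.8 (-0.47, SE 0.21, limma adjusted p = 0.127). Abcg8 had 266.5, 712, 339.8 and 265.7 against 303.7 to 419.7 (-0.01, SE 0.26, limma adjusted p = 0.976), its interval being -0.58 to 0.56. Tcell-low 2 was the highest library for Abcg8 and lay inside the Tcell-high range for Abcg5.

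Mylip, a ubiquitin ligase that lowers uptake by sending the low density lipoprotein receptor to lysosomes, had 32.9, 61.8, 59.4 and 101.1 scaled counts in Tcell-low 1 to 4 and 38.6 to 57.9 in Tcell-high livers. Its highest libraries were Tcell-low 2 and 4, Tcell-low 3 also lay above the Tcell-high range, and the log2 fold change was 0.31 (SE 0.30, limma adjusted p = 0.472). Soat2, which esterifies cholesterol in hepatocytes, was low in all libraries. It had 14.7, 13.7, 3.17 and 37.9 against 17.9 to 60.9, lowest in Tcell-low 3 (log2 fold change -1.34, SE 0.55, limma adjusted p = 0.109).

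Other genes of sterol metabolism were read from a list of 50, of which 45 were tested. In Tcell-low livers 7 of these 45 fell and 1 rose, while 7.39% of all genes tested fell and 5.39% rose. The median log2 fold change was -0.31 over the tested ones of the list and 0.003 over all genes tested. Acss2, an acetyl-CoA synthetase that feeds the pathway, had 337.7, 125.8, 289.3 and 108.5 scaled counts in Tcell-low 1 to 4 and 466.4 to 1049 in Tcell-high livers (log2 fold change -1.99, SE 0.35, limma adjusted p = 0.0118). The groups did not overlap. Acly, which makes cytosolic acetyl-CoA from citrate, had 600.4 ± 498.9 in Tcell-low and 1281 ± 322.7 in Tcell-high livers (-1.41, SE 0.41, limma adjusted p = 0.0435).

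The gene of this list that rose was Abca1, the transporter that loads cholesterol onto high density lipoprotein. It had 624.1, 1274, 970.7 and 1072 scaled counts in Tcell-low 1 to 4 and 316.4 to 541 in Tcell-high livers, with no overlap (log2 fold change 1.21, SE 0.23, limma adjusted p = 0.0139). Nr1h3, the sterol-sensing receptor LXR alpha, of which Abca1 is a known target, fell (347.9 ± 234.1 against 746.8 ± 199.2, -1.25, SE 0.33, limma adjusted p = 0.0335). Lipa, the lysosomal acid lipase that frees cholesterol from its esters, also fell (976.8 ± 304.1 against 1787 ± 189.4, -0.93, SE 0.22, limma adjusted p = 0.0252). Without Tcell-low 2 the adjusted p was 0.0572 for Abca1, 0.0751 for Lipa, 0.12 for Nr1h3 and 0.147 for Acly. Acss2 kept its call when any single library was left out. Without Tcell-low 4 it was 0.0506 for Abca1, 0.0694 for Lipa, 0.1 for Nr1h3 and 0.123 for Acly, and without Tcell-low 3 it was 0.0779 for Nr1h3 and 0.0711 for Acly. Leaving out Tcell-high 1, 3, 5 or 6 gave 0.071, 0.0647, 0.0739 and 0.0729 for Nr1h3 and 0.0891, 0.0788, 0.0836 and 0.0645 for Acly, which had 0.0566 without Tcell-high 4. For Lipa the values without Tcell-high 3, 5 and 6 were 0.0525, 0.0588 and 0.054.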

How the data were processed

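Libraries of liver RNA were made with QuantSeq FWD, per the labels' protocols, so reads come from transcript 3′ ends. STAR and DESeq2 were run with the mouse build mm10, per the submitters' processing notes. Their versions are not stated, nor are the read counter, its use of strand or the annotation. In the deposited table is a signal per gene and library, gene counts that the authors scaled to a common depth. Low values fall on steps for few genes only, whole reads were therefore out of reach, and no count test, counting interval or floor was used, and depth per library is known only as the scaled total. An exact 0 may be a failed estimate.

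Groups came from sample titles, and columns were matched by the submitters' library names. Genes with a mean of at least 10 were fitted as log2(scaled count + 1) with limma 3.58.1 in R 4.3.3 (variance trend, group as the only term, 13.1 degrees of freedom, two-sided, Benjamini-Hochberg over 11110 genes, called below 0.05). No 2 libraries held identical values (highest correlation 0.967). Named genes were all 28 members and, of the other sterol genes, the called ones with the 6 lowest adjusted p, of which 1 is not reported here. The members and lists were chosen with earlier results of these data known. Positions are from GENCODE vM21 (GRCm38, the assembly named mm10), and genes are called uncertain where another gene holds 20% or more of the 50-base words found in the last 400 bases of their transcripts. Figures were drawn with matplotlib 3.10.9.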

Additional observations from a re-analysis of the deposited data

Results flagged for a closer look

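In 6 of 68 gene and group combinations (34 genes) a library lay far from the rest of its group by Dixon's criterion, of which chance gives about 1 in 20. Tcell-high 2 was highest for Pmvk (1487 scaled counts), Mvd (3315) and Insig2 (2948). Tcell-low 3 was highest for Lss (412.9), Tcell-low 2 for Abcg8 (712) and Tcell-low 1 for Nr1h3 (696.8).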

How the results depend on the processing

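The 5 genes that fell were called lower under both rescalings, the stricter filter and both other pseudocounts. Rescaling to a common total moved the median log2 fold change of all genes to -0.115 and that of the members to -1.11, and no member changed direction under it. Members called lower numbered 3 with no filter beyond a mean above 0 (6% of 16824 genes called, 593 lower and 417 higher) and 3 with the robust option (12.6% of all genes called), and other sterol genes called lower numbered 4 with the first of these. Without Tcell-high 1, 3, 5 and 6 there were 0 calls of any kind (limma; 999 genes at an unadjusted p below 0.05). The cause of these differences was not tested.

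Leaving out 1 library gave 0 to 13 members lower and 0 to 1 higher, 1 to 12 other sterol genes lower and 0 to 7 higher, and 67 to 1909 of all genes lower and 41 to 1713 higher. The median of the members was then -1.38 to -0.653. Direction turned for 2 members near 0: over these fits the log2 fold change of Lss ran from -0.73 to 0.042, positive without Tcell-low 2 or 4, and that of Abcg8 from -0.34 to 0.134, positive without Tcell-low 1, 3 or 4 or Tcell-high 2, 3 or 6.

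The replicate numbers shared by the titles gave no clear sign of pairing. Deviations of same-numbered libraries correlated at 0.104, 0.211, -0.0988 and -0.151, and 1 of 4 Tcell-low libraries correlated best with its own number. Such correlations cannot exclude a pairing. With the replicate block, 1 member was called lower, 2 other sterol genes lower and 0 higher, and 133 of all genes lower and 60 higher. Scaled values without counts limit what can be said of low genes such as Soat2.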
